A study of Mus musculus with 8 samples.

Results

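Cyclic AMP (cAMP) holds the mouse oocyte in the prophase of meiosis, and the 10 genes described here make, destroy or read it. They are the receptors Gpr3 and Gpr12, the G protein gene Gnas, the adenylyl cyclases Adcy3 and Adcy9, the phosphodiesterases Pde3a and Pde8a, and the protein kinase A (PKA) subunits Prkaca, Prkar1a and Prkar2b. They were chosen by symbol for that role, and no measured value entered the rule. The choice was made with earlier results of these data known, so that counts of members called are not those of a blind choice. Each symbol matched 1 gene identifier, so that 10 of the 48440 genes in the deposited tables are members, and 21989 of those 48440 have a protein-coding transcript. The members hold 58 annotated transcripts between them.

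RNA was sequenced from 4 groups of mouse cells, with 2 libraries in each. MII oocytes, so named in the labels, are eggs at metaphase of the second meiotic division, after prophase arrest has ended. GV oocytes still have the nucleus of the prophase arrest, the germinal vesicle. Per the labels, oocyte donors received 5 units of PMSG, a gonadotropin that makes follicles grow, and a further injection, its agent unstated, came 48 hours later. GV oocytes were handled in MEM with 2 µM milrinone, which keeps meiosis from resuming. Milrinone inhibits the phosphodiesterase family to which Pde3a belongs. The labels of the MII oocytes repeat the GV text and give no maturation step. EpiC are in vitro epiblast cells, made by plating embryonic stem cells for 24 hours, taking away LIF and both inhibitors, and collecting about 56 hours later. ESC are embryonic stem cells in medium with 15% fetal bovine serum, LIF and the inhibitors PD0325901 and CHIR99021. Strain, the number of oocytes per library and the origin of replicates are not given in the sources used here, so that each p-value measures only the spread between these libraries, which may be technical.

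As background, GPR3 and GPR12 are receptors that activate the stimulatory G protein Gsα, the main product of Gnas, without a known added ligand. Gsα turns on adenylyl cyclases, cAMP releases the catalytic subunit of PKA from its regulatory subunits, and active PKA keeps the cell-cycle kinase CDK1 off by acting on WEE2 and CDC25B. In the mouse, loss of Gpr3 lets oocytes resume meiosis too early, and loss of Pde3a keeps them arrested. Cyclic GMP that enters from the granulosa cells through gap junctions holds PDE3A back until ovulation.

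Estimated counts per library ran between 47463546 and 196788239. The defining oocyte markers summed to between 26680 and 36290 TPM in the 4 oocyte libraries, with all 14 at 1 TPM or more, and to between 6.08 and 71.1 TPM in EpiC and ESC. TPM is the share of a library's transcripts, each weighted by its length, so that genes can be set beside each other on it. Markers of cumulus and granulosa cells, which surround the oocyte, summed to 68.5 and 76.9 TPM in MII oocytes and 74.4 and 249 TPM in GV oocytes. The same list summed to 33.3 and 30.7 TPM in EpiC and 62.8 and 50.6 TPM in ESC, so that only the second GV library stood well apart. In the second GV library 11 of those 21 markers reached 1 TPM, against 5 in the first, and Inha stood at 104.5 TPM against 4.66. Pluripotency markers summed to 396 and 213 TPM in EpiC and 2528 and 1979 TPM in ESC, and epiblast markers to 683 and 180.5 TPM in EpiC and 66.2 and 40.3 TPM in ESC. These sums do not by themselves tell cultured cells from oocytes. Pluripotency markers summed to 33.1 and 35.8 TPM in MII and 152.5 and 196.9 TPM in GV oocytes. Epiblast markers summed to 133.4 and 212.3 TPM in MII oocytes, mostly Lef1 (112.2 and 187.8 TPM), and to 23.5 and 54.7 TPM in GV oocytes. In all 4 groups the second library was the deeper one, with at least 116034226 counts against at most 79465769 in the first libraries. The ribosomal-repeat gene Gm42418 took 1.66% to 22.7% of the counts of the second libraries and at most 0.151% of the first, so that replicate number, depth and this share cannot be told apart.

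Between MII and GV oocytes the G protein gene fell, while both phosphodiesterases and a pair of PKA subunits rose. Gnas was 0.169 times its GV level, while Pde8a was 22.8-fold, Prkaca 6.53-fold, Prkar2b 4.67-fold and Pde3a 4.25-fold higher in MII oocytes. The receptors and both cyclases did not pass the test. Of the 10 members, 4 rose and 1 fell (edgeR quasi-likelihood test, Benjamini-Hochberg adjusted over all 25045 genes tested, threshold 0.05), where 39.6% of all genes were called, 17.4% higher and 22.2% lower. These folds are on the TMM scale, which sets the libraries against each other by the genes they share. On the TPM scale, log2(TPM + 1) tested with limma, 2 members were called higher (Pde8a and Prkaca) and 2 lower (Gnas and Gpr3), beside 2394 higher and 7332 lower of all 19344 genes tested there. The rises of Pde3a (1.07, adjusted p = 0.0936) and Prkar2b (0.95, adjusted p = 0.0876) did not pass on that scale. Such fold changes understate the change of low genes. The scales differ most in MII oocytes: of the genes called in MII against GV, 43.9% were higher on the TMM scale and 24.6% on the TPM scale. On log2(TPM + 1) the median of the genes tested on both scales was shifted by 0.02 against the TMM scale. On log2(TPM + 0.1) that shift was -0.55, and 21.7% of calls were higher. The sources used here name no added RNA standard, so that neither scale gives RNA per oocyte. In bulk samples, fewer cells of a type and less RNA per cell cannot be told apart.

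**Figure D1:**
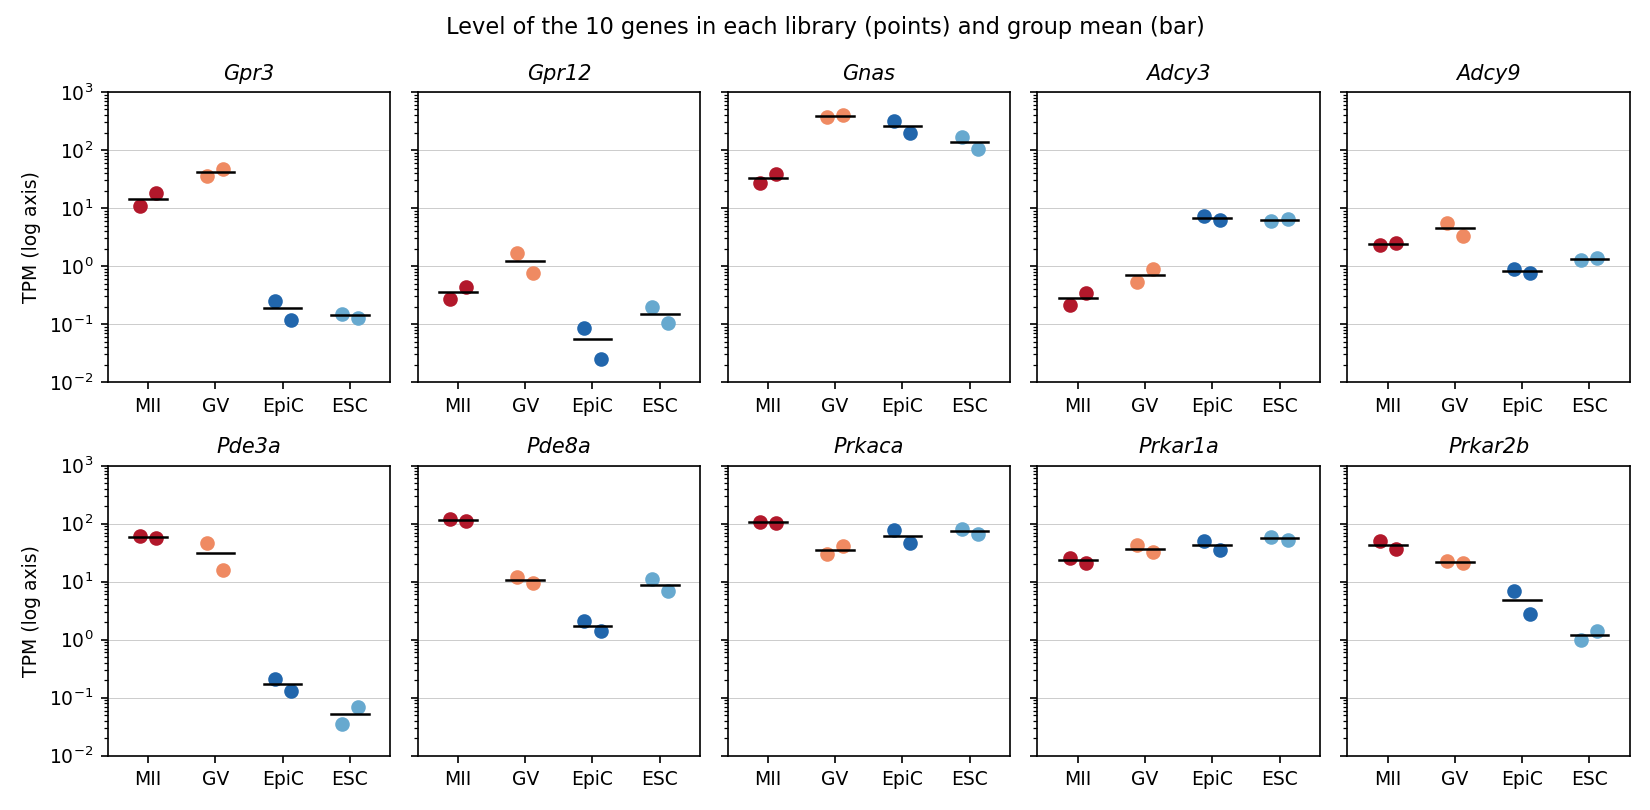
Level of each of the 10 genes in TPM (log axis) in the 8 libraries, with points for libraries and bars for the mean of 2. Gpr3 and Pde3a lie above 10 TPM in all 4 oocyte libraries and at or below 0.253 TPM in all 4 libraries of cultured cells, and Gnas is lowest in MII oocytes.

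**Figure D2:**
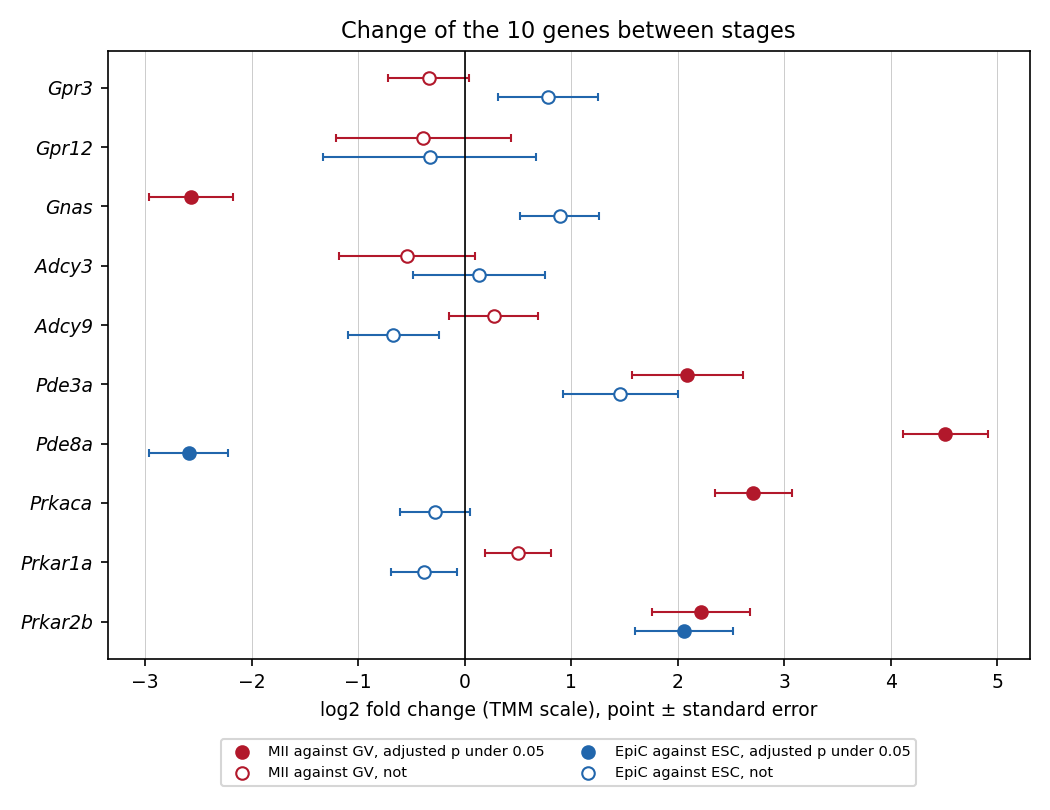
Log2 fold change of each gene in MII against GV oocytes (red) and in EpiC against ESC (blue) on the TMM scale, with approximate standard errors and filled points where the adjusted p is under 0.05. Pde8a was higher in MII oocytes and lower in EpiC. On the TPM scale Adcy9 and Prkar1a change sign between MII and GV.

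Gpr3 (ENSMUSG00000049649.8, chr4:133209340-133212536, minus strand, GRCm38) encodes the receptor that drives Gsα in the arrested oocyte. Its level was 10.9 and 18 TPM in MII oocytes, 35.0 and 47.7 TPM in GV oocytes, 0.253 and 0.119 TPM in EpiC, and 0.152 and 0.130 TPM in ESC. All 4 oocyte libraries were far above the cultured cells, where the level rests on 6 to 26 estimated counts a library. Gpr3 was 573-fold higher in GV oocytes than in ESC, 9.16 ± 0.56 on the log2 scale (± SE, adjusted p = 6.84e-06), and 265-fold higher in MII oocytes than in EpiC, 8.05 ± 0.53 (adjusted p = 6.81e-06). The MII and GV levels did not overlap in TPM. Whether Gpr3 fell at maturation depends on the scale: its log2 fold change in MII against GV was -0.34 ± 0.38 on the TMM scale (adjusted p = 0.518), and -1.47 on the TPM scale with limma (adjusted p = 0.0055). The difference between EpiC and ESC did not pass the test either (0.78 ± 0.47, adjusted p = 0.488).

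Gpr12 (chr5:146582398-146585239, minus strand), a close relative of Gpr3, was the lower of the pair in every oocyte library. It reached 0.273 and 0.440 TPM in MII oocytes, 1.66 and 0.753 TPM in GV oocytes, 0.0851 and 0.0250 TPM in EpiC, and 0.198 and 0.105 TPM in ESC. Of the summed TPM of Gpr3, Gpr6 and Gpr12, Gpr3 made up 97.6% in both MII libraries and 95.5% and 98.4% in the GV libraries, and Gpr6 was listed at 0 in every oocyte library. Gpr12 made up 25.2% and 17.3% in EpiC and 56.5% and 43.9% in ESC, where all 3 were near 0. Gpr12 was higher in GV oocytes than in ESC by 4.76 ± 0.99 on the log2 scale (adjusted p = 0.00297), but with 5 and 6.21 estimated counts in ESC the size of that difference is poorly fixed. In MII against GV it was -0.39 ± 0.82 (adjusted p = 0.743). The adenosine receptor Adora2b was lower in MII than in GV oocytes (-3.11 ± 0.78, adjusted p = 0.0111), and Adora2a was higher by 3.19 ± 0.67 (adjusted p = 0.00473), at 0.112 and 0.525 TPM in MII oocytes and 6.29 and 6.58 TPM in GV oocytes for Adora2b, and 0.952 and 1.07 TPM in MII oocytes and 0.222 and 0.269 TPM in GV oocytes for Adora2a.

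By a Euclidean distance between log2(TPM + 1) profiles over the 8 libraries, the protein-coding genes most like Gpr3 were Eps8l3 (distance 0.817), Kcnk13 (0.99) and Acot3 (1.02). Eps8l3, for instance, stood at 9.28 and 13.4 TPM in MII oocytes and 29.2 and 35.0 TPM in GV oocytes, and at or near 0 in EpiC and ESC. For Pde3a they were Lama2 (0.422), Lcp2 (0.588) and Gpr149 (0.926).

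Gnas (ENSMUSG00000027523.19, chr2:174284320-174346744, plus strand) was the 1 member that fell in MII against GV. It stood at 27.3 and 38.1 TPM in MII oocytes, 370 and 404.9 TPM in GV oocytes, 311 and 198 TPM in EpiC, and 171 and 105 TPM in ESC. The MII libraries were the lowest of all 8, and the GV libraries the highest. Its log2 fold change was -2.57 ± 0.39 in MII against GV (adjusted p = 0.000948) and -1.70 ± 0.37 in MII against EpiC (adjusted p = 0.00319), the second of which missed the threshold without the first MII library (-1.27, adjusted p = 0.0541). In GV oocytes it was higher than in ESC by 1.76 ± 0.37 (adjusted p = 0.00342). In MII oocytes 13% of the protein-coding genes had a higher mean TPM, against 1.57% in GV oocytes. The locus also holds the antisense gene Nespas, which overlaps Gnas over 11117 bases. The libraries are stranded per the labels, but the sources used here do not say whether quantification used the strand.

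Most Gnas RNA was assigned to the long coding form of Gsα, Gnas-201, at 71.6% and 48.3% of the gene's TPM in MII oocytes, 80.1% and 69.1% in GV oocytes, 77.8% and 74.9% in EpiC, and 77.0% and 74.9% in ESC. Gsα has long and short forms that differ by a cassette exon. That exon, the third of Gnas-201, is 45 bases long and is shown in capitals between the 20 bases on either side, beside the same junction of Gnas-017, which skips it, and of Gnas-014, which skips it and adds the 3 bases in capitals (GENCODE M21 transcripts, chromosome 2, plus strand).
Gnas-201: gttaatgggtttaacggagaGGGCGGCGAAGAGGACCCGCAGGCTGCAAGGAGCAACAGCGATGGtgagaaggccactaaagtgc
Gnas-017: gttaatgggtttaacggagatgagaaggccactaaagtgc
Gnas-014: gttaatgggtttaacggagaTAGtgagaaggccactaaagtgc
The short forms made up 3.31% and 16.2% of the 3 forms in MII oocytes, 11.5% and 9.12% in GV oocytes, 18.6% and 17.6% in EpiC, and 19.0% and 14.7% in ESC. The MII libraries lie on both sides of the GV libraries, while both GV libraries lie below all 4 of cultured cells. Shares of transcripts get no test here, since an exact permutation test of 2 against 2 libraries cannot go below 0.333 (two-sided), and the deposited tables carry no error for a single transcript.

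A truncated Gsα transcript, Gnas-018, was estimated higher in MII than in GV oocytes, while the summed level of the gene fell. It shares the first exons of Gnas-201, cassette exon included, and ends after 4 exons with one of 464 bases, with a coding stretch of 273 bases against 1182 in Gnas-201. It was estimated at 3.8 and 5.24 TPM in MII oocytes and 0.624 and 2.68 TPM in GV oocytes, while Gnas-201 was at 19.5 and 18.4 TPM in MII oocytes and 296 and 280 TPM in GV oocytes. Its share of Gnas was 13.9% and 13.8% in MII oocytes, 0.169% and 0.662% in GV oocytes, 0.147% and 0.503% in EpiC, and 0.298% and 0% in ESC. Both MII libraries stand apart from the other 6. Gnas-013 ends in the same exon of 464 bases and went down. It was estimated at 2.20 and 1.54 TPM in MII oocytes and 19.4 and 12.5 TPM in GV oocytes. The level of Gnas-018 thus depends on how reads of shared exons were assigned, which was not tested.

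Adcy3 (chr12:4133103-4213525, plus strand), a calcium-sensitive cyclase reported as the main form of the rodent oocyte, was at 0.212 and 0.345 TPM in MII oocytes, 0.532 and 0.889 TPM in GV oocytes, 7.24 and 6.11 TPM in EpiC, and 5.90 and 6.51 TPM in ESC. Every oocyte library was below every library of cultured cells. The log2 fold change was -3.18 ± 0.67 in GV oocytes against ESC (adjusted p = 0.0033) and -3.85 ± 0.70 in MII oocytes against EpiC (adjusted p = 0.00111). Transcripts annotated as noncoding took 68.1% and 50.8% of its TPM in MII oocytes and 55.1% and 25.4% in GV oocytes, against 15.4% and 23.9% in EpiC and 18.5% and 22.0% in ESC. The oocyte shares rest on few reads, with 14 and 103 estimated counts of Adcy3 in MII oocytes and 57 and 411 in GV oocytes. Adcy3 shares 17522 bases with Cenpo on the opposite strand.

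Adcy9 (chr16:4287529-4420498, minus strand), a widely expressed cyclase that forskolin stimulates poorly, was at 2.34 and 2.45 TPM in MII oocytes, 5.64 and 3.36 TPM in GV oocytes, 0.883 and 0.756 TPM in EpiC, and 1.29 and 1.36 TPM in ESC. All 4 oocyte libraries were above all 4 of cultured cells. It was higher in GV oocytes than in ESC by 2.04 ± 0.44 (adjusted p = 0.00351) and in MII oocytes than in EpiC by 2.99 ± 0.46 (adjusted p = 0.000396). Between MII and GV oocytes it was 0.27 ± 0.42 on the TMM scale (adjusted p = 0.645) and -0.66 on the TPM scale (adjusted p = 0.0622), so that no direction holds.

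Neither member cyclase was the most abundant in the oocyte. Of the summed TPM of the 10 adenylyl cyclases, Adcy5 held 39.1% and 40.1% in MII oocytes and 50.1% and 60.8% in GV oocytes, but 0.764% and 1.09% in EpiC and 1.80% and 4.26% in ESC. Adcy9 held 22.3% and 19.1% in MII oocytes and 17% and 12.5% in GV oocytes. Adcy3 held 2.01% and 2.68% in MII oocytes and 1.60% and 3.32% in GV oocytes, and was first in the cultured cells, with 36.7% and 30.2% in EpiC and 44.2% and 39.5% in ESC. Of the 8 cyclases that are not members, 1 rose and none fell in MII against GV, where 39.6% of all genes were called: Adcy8, by 2.03 ± 0.53 (adjusted p = 0.014), at 2.00 and 2.71 TPM in MII oocytes and 1.46 and 1.14 TPM in GV oocytes. On the TPM scale Adcy8 kept its call (0.54, adjusted p = 0.0472) and Adcy5 (-1.64, adjusted p = 0.00126) and Adcy1 (-1.68, adjusted p = 0.00388) were called lower. Against ESC, 4 of the 8 were higher in GV oocytes and 3 lower, where 59.6% of all genes were called, 28.3% higher and 31.3% lower, with Adcy5 higher by 5.4 ± 0.63 (adjusted p = 0.000129) and Adcy2 lower (-7.20 ± 0.96, adjusted p = 0.000259).

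Pde3a (ENSMUSG00000041741.10, chr6:141249269-141507448, plus strand) encodes the phosphodiesterase that removes cAMP at the resumption of meiosis. Its level was 60.7 and 56.2 TPM in MII oocytes, 46.1 and 16.1 TPM in GV oocytes, 0.213 and 0.129 TPM in EpiC, and 0.0349 and 0.0682 TPM in ESC. Both MII libraries were above both GV libraries, but the GV libraries were far apart. The lower one was the second GV library, where granulosa markers were highest, and the part of those markers in this gap was not tested. Pde3a was 700-fold higher in GV oocytes than in ESC (9.45 ± 0.73, adjusted p = 1.69e-05) and 1081-fold higher in MII oocytes than in EpiC (10.08 ± 0.74, adjusted p = 9.4e-06). Its rise in MII against GV, 2.09 ± 0.52 (adjusted p = 0.011), was lost without the first MII library (1.96, adjusted p = 0.051), without the second GV library (1.54, adjusted p = 0.0519) and on the TPM scale (1.07, adjusted p = 0.0936). The coding transcript Pde3a-001 is 12302 bases long, 8797 of them in its last exon, and carried 97.9% to 99.5% of the gene's TPM in the oocyte libraries.

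Pde8a (ENSMUSG00000025584.17, chr7:81213596-81334533, plus strand), a cAMP-specific phosphodiesterase with high affinity, had the largest rise of the 10. It stood at 118 and 112 TPM in MII oocytes, 12 and 9.63 TPM in GV oocytes, 2.08 and 1.41 TPM in EpiC, and 10.9 and 6.88 TPM in ESC. Both MII libraries were far above the other 6, the GV and ESC libraries overlapped, and both EpiC libraries were the lowest. The log2 fold change in MII against GV was 4.51 ± 0.40 (adjusted p = 0.000518), and in EpiC against ESC it was -2.59 ± 0.37 (adjusted p = 0.00529). The difference of those stage changes was 7.11 ± 0.54 (adjusted p = 0.000789). In GV oocytes against ESC it was 0.80 ± 0.35 (adjusted p = 0.071), or 0.83 (adjusted p = 0.0388) with replicate number as a term, and in MII oocytes against EpiC 7.91 ± 0.46 (adjusted p = 4.8e-06).

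Within each library, the make-up of the phosphodiesterases that hydrolyse cAMP differed between the oocyte stages, and such shares do not depend on how libraries are scaled to each other. Pde3a, Pde3b and Pde8a together made up 94.2% and 92.9% of the TPM of the 16 genes in MII oocytes, 39.8% and 24.9% in GV oocytes, 9.21% and 7.58% in EpiC, and 17.2% and 11.4% in ESC. Pde8a alone was 37.4% and 42.7% in MII oocytes against 6.80% and 7.62% in GV oocytes. Pde3b, the other gene of the PDE3 family, was 37.6% and 28.7% in MII oocytes against 6.89% and 4.58% in GV oocytes. Pde3a kept a similar share, 19.3% and 21.4% in MII oocytes and 26.1% and 12.7% in GV oocytes, so that the ratio of Pde3a to Pde3b was 0.513 and 0.745 in MII oocytes and 3.79 and 2.77 in GV oocytes. The largest GV share belonged to Pde1b, a calmodulin-dependent form, at 0.511% and 1.11% in MII oocytes and 30% and 43.5% in GV oocytes. Pde7a filled under 1% in every oocyte library, and 51.1% and 60.9% in EpiC and 51.5% and 51.6% in ESC.

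**Figure D3:**
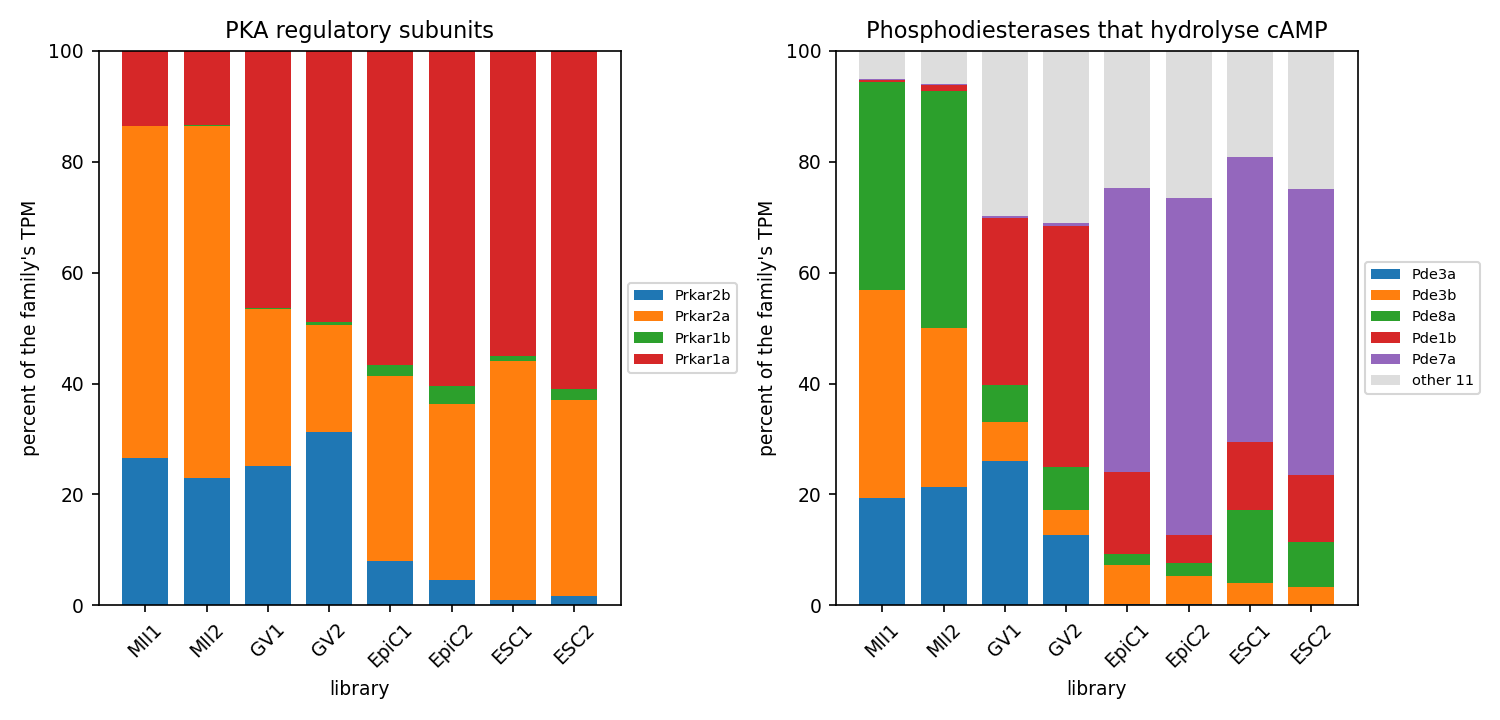
Share of each library's TPM within the 4 PKA regulatory subunits (left) and the 16 phosphodiesterases that hydrolyse cAMP (right), as stacked bars per library. Prkar2a and Prkar2b fill 86.4% and 86.5% of the left bars in MII oocytes against 53.5% and 50.7% in GV oocytes, and Pde3a, Pde3b and Pde8a fill over 90% of the right bars in MII oocytes.

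The list of 18 other Pde symbols held 19 gene identifiers, since Pde2a has 2. It was drawn up by name, and not all of its products act on cyclic nucleotides, Pde6d and Pde12 among them. In MII against GV, 2 of the 19 rose and 7 fell, where 17.4% of all genes were higher and 22.2% lower, and 1 rose and 8 fell of 18 tested on the TPM scale. Without the second GV library 1 rose and 4 fell. Pde3b rose by 4.59 ± 0.59 (adjusted p = 0.000599), at 118 and 75.4 TPM in MII oocytes and 12.2 and 5.79 TPM in GV oocytes. The other rise was Pde12 (1.45 ± 0.35, adjusted p = 0.00926), which did not pass on the TPM scale (0.21, adjusted p = 0.59). Pde1b fell (-3.40 ± 0.65, adjusted p = 0.00293), at 1.61 and 2.92 TPM in MII oocytes and 52.9 and 55.0 TPM in GV oocytes. Pde6d, whose product carries prenylated proteins, also fell (-3.20 ± 0.48, adjusted p = 0.000922). The median log2 fold change of the list was -0.55, beside -0.53 over all genes tested. Against ESC, 10 of the 19 were higher in GV oocytes and 4 lower, where 59.6% of all genes were called, with Pde1a (6.47 ± 0.76, adjusted p = 0.000136), Pde7b (5.79 ± 1.05, adjusted p = 0.0014) and Pde1c (5.38 ± 0.67, adjusted p = 0.000185) at the top and Pde7a (-5.68 ± 0.40, adjusted p = 1.13e-05) at the bottom. The list's median there was 1.95, beside -0.51 over all genes.

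Prkaca (ENSMUSG00000005469.10, chr8:83972993-83996443, plus strand) encodes the catalytic subunit Cα of PKA. It was at 108 and 102 TPM in MII oocytes, 29.9 and 41.3 TPM in GV oocytes, 75.9 and 45.6 TPM in EpiC, and 80.3 and 65.9 TPM in ESC. The MII libraries were the highest of all 8 and the GV libraries the lowest, and EpiC and ESC overlapped. It rose in MII against GV by 2.71 ± 0.36 (adjusted p = 0.000638). It was higher in MII oocytes than in EpiC by 2.21 ± 0.35 (adjusted p = 0.000493), a call lost on the TPM scale (0.82, adjusted p = 0.0579). In GV oocytes against ESC it was -0.78 ± 0.34 (adjusted p = 0.0697). A processed copy, Prkaca-ps1, is annotated, and reads that match both could be split between them.

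Prkaca has a pair of annotated transcripts with different first exons, and the oocyte libraries had a larger share assigned to the downstream one. This transcript, Prkaca-002, starts 3890 bases downstream of Prkaca-001 and codes for the short amino-terminus known as Cα2, described in sperm. The last exons differ too, with 1152 bases in Prkaca-001 and 303 in Prkaca-002. The share is therefore not one of first exons alone, and the start itself was not measured. Below are the first coding bases of both, with those of the first exon in capitals and the shared second exon in lower case (chromosome 8, plus strand, GENCODE M21).
Prkaca-001: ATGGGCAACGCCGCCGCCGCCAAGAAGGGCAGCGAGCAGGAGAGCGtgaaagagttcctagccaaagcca
Prkaca-002: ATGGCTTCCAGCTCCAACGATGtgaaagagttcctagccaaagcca
Prkaca-002 made up 16.9% and 10.5% of the gene's TPM in MII oocytes, 13% and 13.7% in GV oocytes, 5.25% and 0.36% in EpiC, and 1.34% and 1.08% in ESC. Each of the 4 oocyte libraries was above each of the 4 libraries of cultured cells, and MII and GV oocytes overlapped. In TPM it was 18.2 and 10.7 in MII oocytes, 3.89 and 5.65 in GV oocytes, 3.99 and 0.164 in EpiC, and 1.08 and 0.713 in ESC.

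The windows of 300 bases around both starts differ in make-up. They run from 250 bases before to 50 after the RefSeq start and are read on the plus strand of chromosome 8 in GRCm38.p6, with matches to CCAAT and GGGCGG on either strand in capitals.
Prkaca upstream window, chr8:83972728-83973027: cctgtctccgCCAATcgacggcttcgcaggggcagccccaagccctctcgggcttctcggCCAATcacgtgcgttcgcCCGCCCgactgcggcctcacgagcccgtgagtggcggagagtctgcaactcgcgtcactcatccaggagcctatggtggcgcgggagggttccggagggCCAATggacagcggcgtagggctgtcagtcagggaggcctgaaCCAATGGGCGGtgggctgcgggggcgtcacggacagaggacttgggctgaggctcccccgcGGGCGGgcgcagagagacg
Prkaca downstream window, chr8:83976633-83976932: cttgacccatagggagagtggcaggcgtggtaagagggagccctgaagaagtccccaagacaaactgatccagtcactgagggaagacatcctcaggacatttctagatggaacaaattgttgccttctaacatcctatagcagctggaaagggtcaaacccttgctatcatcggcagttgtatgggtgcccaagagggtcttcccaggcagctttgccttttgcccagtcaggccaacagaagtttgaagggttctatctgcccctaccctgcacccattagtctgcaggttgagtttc
The upstream window holds 31 CG dinucleotides, 4 matches to CCAAT and 3 to GGGCGG, and the downstream window 2 CG and no match to either. The median window of all 32851 holds 7 CG, 37.4% hold CCAAT and 35.7% hold GGGCGG. The TATAAA box matches in neither window and is held by 13.6% of all windows. The full cAMP response element, TGACGTCA, also matches in neither and is held by 1.79%. CANNTG, the E-box, matches once in the upstream and 2 times in the downstream window and is held by 72.3% of windows.

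Prkar1a (chr11:109649405-109669656, plus strand) encodes the type I regulatory subunit RIα, which binds the catalytic subunit in the cytosol. It was at 25.6 and 21.3 TPM in MII oocytes, 41.9 and 32.3 TPM in GV oocytes, 49.7 and 35.7 TPM in EpiC, and 59.3 and 52.9 TPM in ESC. It had the smallest ratio of highest to lowest library in TPM of the 10. In MII against GV its log2 fold change was 0.50 ± 0.31 (adjusted p = 0.233) on the TMM scale and -0.63 (adjusted p = 0.104) on the TPM scale. In MII oocytes against EpiC it was 0.71 ± 0.31 (adjusted p = 0.0672) on the TMM scale. With replicate number as a term of that fit it was called higher (0.72, adjusted p = 0.0388), and on the TPM scale it was called lower (-0.82, adjusted p = 0.032).

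Prkar2b (ENSMUSG00000002997.15, chr12:31958476-32061296, minus strand) encodes RIIβ, a type II regulatory subunit that anchoring proteins tether. It was at 50.2 and 36.6 TPM in MII oocytes, 22.6 and 20.7 TPM in GV oocytes, 6.99 and 2.72 TPM in EpiC, and 0.980 and 1.41 TPM in ESC. The 4 groups did not overlap and came in that order. It was higher in MII against GV by 2.22 ± 0.46 (adjusted p = 0.00426), a call lost on the TPM scale (0.95, adjusted p = 0.0876). In GV oocytes it was 22.8-fold higher than in ESC (4.51 ± 0.51, adjusted p = 0.000109). The rise in EpiC against ESC, 2.06 ± 0.46 (adjusted p = 0.0341), was lost without the first EpiC library (1.33, adjusted p = 0.172) and without the first or the second ESC library (1.78 and 2.42, adjusted p = 0.261 and 0.0847).

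By the authors' assignment of reads among overlapping transcripts, most oocyte RNA of Prkar2b went to a transcript annotated to start inside the gene; the start itself was not measured. Prkar2b-003 begins 707 bases downstream of Prkar2b-001, within the first intron of that longer form, and its coding stretch of 768 bases lacks the first 480 of the 1248 coding bases of Prkar2b-001. In RII subunits the amino-terminus holds the domain for dimerization and docking to anchoring proteins. The first 60 coding bases of Prkar2b-001 are given with the start codon in capitals, and the shared stretch around the annotated start codon of Prkar2b-003 likewise (chromosome 12, minus strand, GENCODE M21).
Prkar2b-001: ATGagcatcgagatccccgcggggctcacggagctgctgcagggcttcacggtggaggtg
Prkar2b shared: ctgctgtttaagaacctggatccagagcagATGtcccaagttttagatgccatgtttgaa
Prkar2b-003 made up 95.7% and 88.6% of the gene's TPM in MII oocytes, 92.4% and 74.1% in GV oocytes, 36% and 34% in EpiC, and 65.1% and 59.4% in ESC. Both oocyte groups were above ESC, and ESC above EpiC. Its level was 48.0 and 32.4 TPM in MII oocytes and 20.9 and 15.4 TPM in GV oocytes, against 2.52 and 0.923 TPM in EpiC and 0.638 and 0.838 TPM in ESC. Prkar2b-001 was listed at 0 in both MII libraries and the first GV library and at 0.0681 TPM in the second, against 3.81 and 1.01 TPM in EpiC. The third transcript, Prkar2b-002, starts near Prkar2b-001 and also has 1248 coding bases, so that a form of full coding length was estimated in oocytes. It was at 2.16 and 4.16 TPM in MII oocytes and 1.71 and 5.31 TPM in GV oocytes. Its share of the gene's TPM was 4.31% and 11.4% in MII oocytes and 7.58% and 25.6% in GV oocytes.

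The windows around both Prkar2b starts, read on the minus strand of chromosome 12 in GRCm38.p6, were searched for the same motifs. The downstream window begins in the last bases of the first exon of Prkar2b-001.
Prkar2b upstream window, chr12:32061228-32061527: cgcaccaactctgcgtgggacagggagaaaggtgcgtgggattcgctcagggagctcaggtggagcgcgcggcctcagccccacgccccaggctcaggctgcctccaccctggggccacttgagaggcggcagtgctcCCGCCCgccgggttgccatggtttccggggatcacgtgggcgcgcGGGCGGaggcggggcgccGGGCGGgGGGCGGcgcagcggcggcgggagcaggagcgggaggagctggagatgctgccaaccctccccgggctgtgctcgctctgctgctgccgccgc
Prkar2b downstream window, chr12:32060540-32060839: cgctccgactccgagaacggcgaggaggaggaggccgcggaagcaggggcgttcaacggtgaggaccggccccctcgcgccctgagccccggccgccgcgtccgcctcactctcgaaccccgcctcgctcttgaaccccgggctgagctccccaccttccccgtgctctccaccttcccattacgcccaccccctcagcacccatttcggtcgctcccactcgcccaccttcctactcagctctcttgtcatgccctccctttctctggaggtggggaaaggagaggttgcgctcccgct
They hold 32 and 28 CG, and the upstream window holds 4 matches to GGGCGG and 3 to CANNTG, the downstream window none of either. Neither holds CCAAT. The TATAAA box and the full cAMP response element also match in neither.

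**Figure D4:**
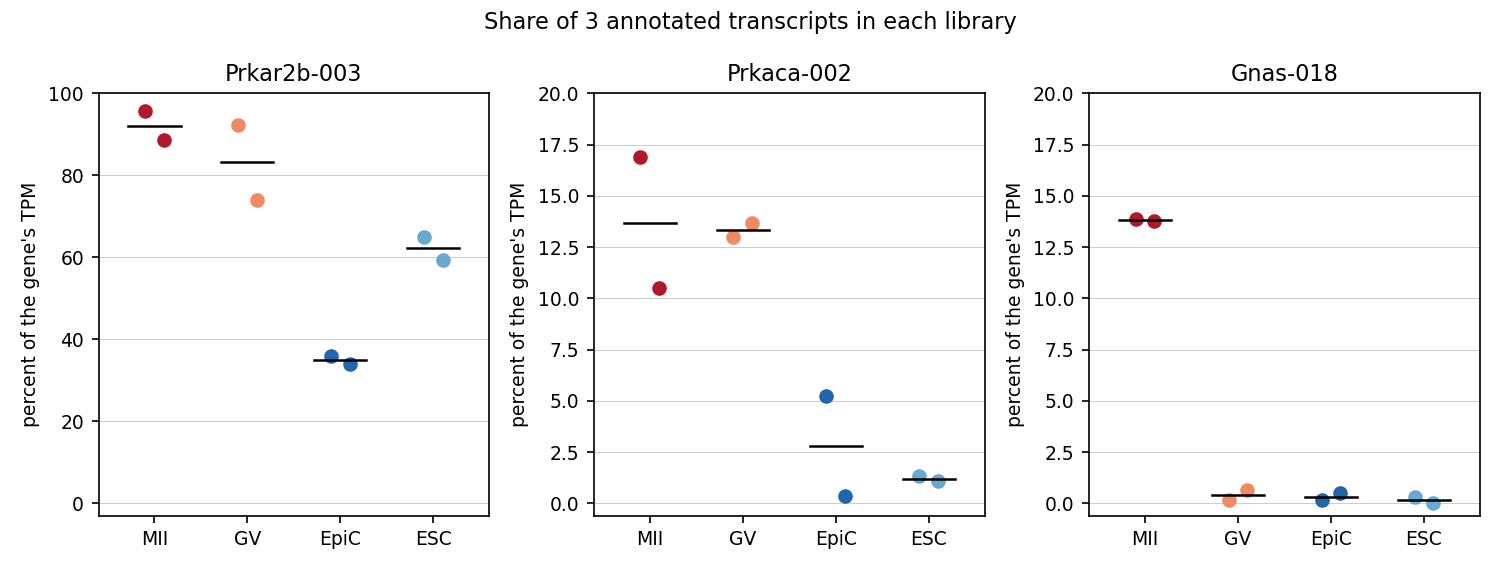
Share of the gene's TPM assigned to Prkar2b-003, Prkaca-002 and Gnas-018 in each library, with bars for the mean of 2. Prkar2b-003 and Prkaca-002 are higher in all 4 oocyte libraries than in the cultured cells, and Gnas-018 stands at 13.9% and 13.8% in MII oocytes against under 1% in the other 6 libraries.

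Among the PKA regulatory subunits, type II took the larger share in MII oocytes, while both types were about even in GV oocytes. Prkar2a and Prkar2b together made up 86.4% and 86.5% of the TPM of the 4 regulatory subunits in MII oocytes, 53.5% and 50.7% in GV oocytes, 41.4% and 36.3% in EpiC, and 44.1% and 37.0% in ESC. Prkar1a held 13.5% and 13.4% in MII oocytes, 46.4% and 48.8% in GV oocytes, 56.6% and 60.4% in EpiC, and 55.1% and 61.0% in ESC. Prkar2b alone kept 26.5% and 23.0% in MII oocytes and 25.1% and 31.3% in GV oocytes, so that the difference in share lay between Prkar1a and Prkar2a. Prkar2a, the other type II subunit, rose in MII against GV by 3.46 ± 0.41 (adjusted p = 0.000545), at 113 and 101 TPM in MII oocytes and 25.7 and 12.8 TPM in GV oocytes, and kept its call on the TPM scale (2.49, adjusted p = 0.00247). Prkacb, the second catalytic subunit, also rose (2.17 ± 0.40, adjusted p = 0.00233) but not past the test on the TPM scale (0.91, adjusted p = 0.103). The 3 inhibitor genes Pkia, Pkib and Pkig and Prkar1b did not pass the test, though Pkig was called lower on the TPM scale (-1, adjusted p = 0.0349). Summed regulatory over summed catalytic TPM gave a ratio of 1.57 and 1.41 in MII oocytes, 2.36 and 1.46 in GV oocytes, 0.872 and 0.99 in EpiC, and 1.14 and 1.10 in ESC, all 4 oocyte libraries above the cultured cells.

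**Figure D5:**
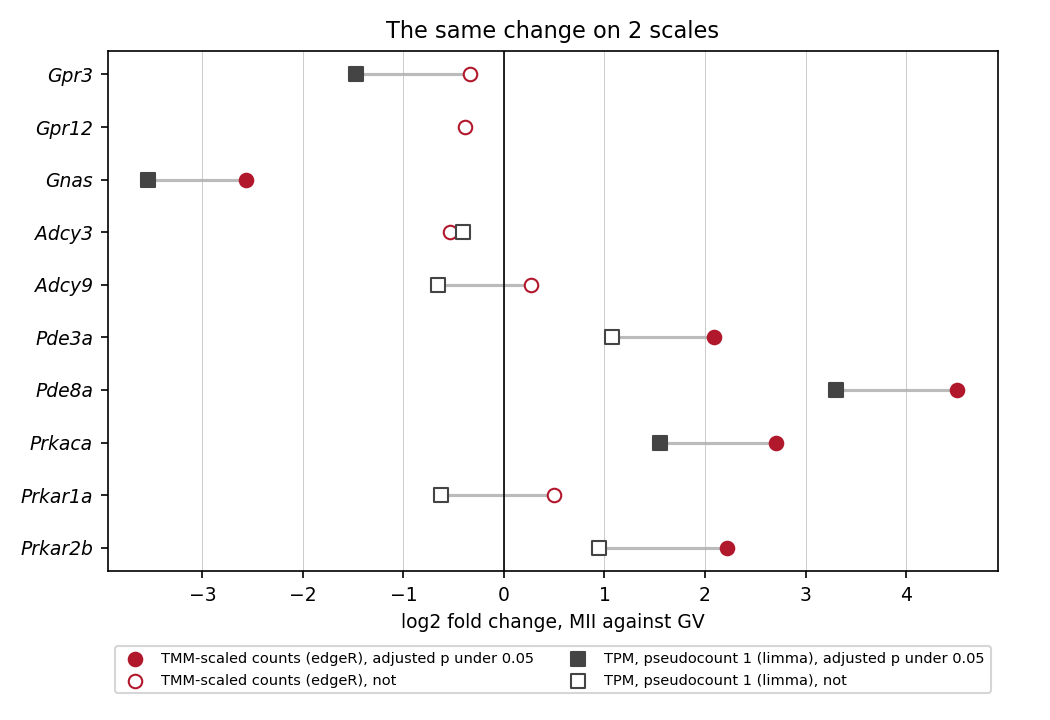
Log2 fold change of each gene in MII against GV oocytes on the TMM scale (circles, edgeR) and on the TPM scale with a pseudocount of 1 (squares, limma), filled where the adjusted p is under 0.05. Gnas, Pde8a and Prkaca are called on both, Adcy9 and Prkar1a change sign, Gpr3 is called lower on the TPM scale alone, and Gpr12 has no square since it missed the TPM filter.

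Set against ESC, GV oocytes were higher in a member of every step but the catalytic subunit. Of the 10 members, 6 were higher in GV oocytes (Gpr3, Gpr12, Gnas, Adcy9, Pde3a and Prkar2b) and 1 was lower (Adcy3), where 59.6% of all genes were called, 28.3% higher and 31.3% lower. In MII oocytes against EpiC, 7 were higher and 2 lower, where 68% of all genes were called, 28.5% higher and 39.6% lower, and 41.8% of the calls were higher against 30.9% on the TPM scale. In EpiC against ESC, 1 was higher and 1 lower, where 5.46% were called, 2.63% higher and 2.83% lower. The list of 9 fibroblast markers summed to 146.5 and 64.1 TPM in EpiC and 2.68 and 3.77 TPM in ESC. Most of the EpiC sum was Tagln, at 134 and 60.04 TPM in EpiC and 0.939 and 1.81 TPM in ESC. Of the 9, 4 and 3 reached 1 TPM in EpiC, against 1 and 2 in ESC. The collagen genes were low in EpiC: Col1a1 at 0.51 and 1.04 TPM, Col1a2 at 0.32 and 0.18, and Col3a1 at 0.27 and 0.053. Whether fibroblasts were present, and their part in these changes, was not tested. The change in MII against GV differed from that in EpiC against ESC for 3 members: Gnas by -3.46 ± 0.53 (adjusted p = 0.00253), Pde8a as given above, and Prkaca by 2.99 ± 0.48 (adjusted p = 0.0029), where 29.7% of all genes were called, 13.2% higher and 16.4% lower, so that 44.6% of the calls were higher, against 26.5% on the TPM scale. Without the second GV library, the one with more granulosa markers, 3 members were higher and 1 lower in MII against GV, and 6 higher and 2 lower in GV oocytes against ESC. The comparisons share libraries, so that their calls are not independent of each other.

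For the wider pathway lists that follow, the share of all genes called was 39.6% in MII against GV (17.4% higher, 22.2% lower) and 59.6% in GV oocytes against ESC (28.3% higher, 31.3% lower). Of 28 receptors, G protein subunits and their regulators tested, 11 rose and 4 fell in MII against GV, with a median log2 fold change of 0.98 beside -0.53 over all genes, but 5 rose and 8 fell of 26 on the TPM scale. Gnai1, an inhibitory α subunit, rose by 4.13 ± 0.46 (adjusted p = 0.000522), at 65.4 and 44.1 TPM in MII oocytes and 8.93 and 5.09 TPM in GV oocytes. The β subunit gene Gnb2 rose by 3.25 ± 0.48 (adjusted p = 0.000867), while Arrb2, a β-arrestin, fell (-2.81 ± 0.37, adjusted p = 0.000642), as did Gna11 (-2.72 ± 0.70, adjusted p = 0.013). All 4 of these calls held on the TPM scale. Against ESC, 8 of the 28 were higher in GV oocytes and 11 lower. Rgs2, a regulator of G protein signalling, stood at 1351 and 1157 TPM in MII oocytes, 675 and 662 TPM in GV oocytes, 4.72 and 3.10 TPM in EpiC, and 0.0461 and 0.152 TPM in ESC. Gnb4 was higher in GV oocytes than in ESC by 4.12 ± 0.34 (adjusted p = 2.31e-05), and Gnal, the olfactory relative of Gsα, lower (-4.89 ± 0.84, adjusted p = 0.00109).

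Anchoring proteins hold PKA at its sites. Of 12 tested, 5 rose and 3 fell in MII against GV, where 39.6% of all genes were called (median 0.91, beside -0.53 over all genes), and 3 rose and 4 fell of 11 on the TPM scale. Without the second GV library the median of the 14 then tested was -0.59. Akap11 (3.11 ± 0.58, adjusted p = 0.00259) and Akap10 (2.24 ± 0.33, adjusted p = 0.000833) rose. Akap1, which anchors PKA at the mitochondrion, fell (-2.69 ± 0.39, adjusted p = 0.000844), at 12.6 and 23.6 TPM in MII oocytes and 247 and 270 TPM in GV oocytes. Akap8l fell as well (-4.21 ± 0.63, adjusted p = 0.000948). In GV oocytes against ESC 4 were higher and 4 lower, where 59.6% of all genes were called, with Akap7 higher by 2.92 ± 0.45 (adjusted p = 0.00059).

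Of 15 genes of the gap junctions and of cyclic GMP supply, 5 rose and 4 fell in MII against GV, where 39.6% of all genes were called (median -0.41), and 1 rose and 4 fell of 11 on the TPM scale. Gjc1, a connexin, rose by 3.30 ± 0.43 (adjusted p = 0.000611), at 3.02 and 3.10 TPM in MII oocytes and 0.507 and 0.834 TPM in GV oocytes, and kept its call on the TPM scale (1.29, adjusted p = 0.0115). Gucy1a2, a subunit of soluble guanylyl cyclase, rose by 2.77 ± 0.59 (adjusted p = 0.0051), a call lost on the TPM scale (0.64, adjusted p = 0.0882). Gja4, the connexin of the oocyte's own side of the junction, fell (-3.31 ± 0.65, adjusted p = 0.00322), at 13.6 and 27.5 TPM in MII oocytes and 327 and 585 TPM in GV oocytes. Npr2, the natriuretic peptide receptor of cumulus cells, fell (-4.75 ± 1.43, adjusted p = 0.0259), at 0.128 and 0.269 TPM in MII oocytes and 0.544 and 10.7 TPM in GV oocytes. Gja1, the connexin of granulosa cells, fell too (-3.81 ± 1.18, adjusted p = 0.0296), at 0.320 and 1.37 TPM in MII oocytes and 2.55 and 50.5 TPM in GV oocytes. Neither Npr2 (adjusted p = 0.139) nor Gja1 (adjusted p = 0.0709) passed on the TPM scale. The GV mean of both rests on the second library, the one in which granulosa markers summed to 249 TPM against 74.4, and the part of those markers was not tested. Without that library 2 rose and 1 fell. In GV oocytes against ESC, 5 of the 15 were higher and 6 lower, where 59.6% of all genes were called, and Prkg1, a kinase that cyclic GMP activates, was higher by 8.93 ± 0.78 (adjusted p = 2.86e-05).

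Among 17 effectors of cAMP and PKA, 6 rose and 7 fell in MII against GV, where 39.6% of all genes were called (median -0.02), and 4 rose and 9 fell on the TPM scale. Wee2, which restrains CDK1 in the arrested oocyte, rose by 2.58 ± 0.37 (adjusted p = 0.000795), at 1029 and 788 TPM in MII oocytes and 420 and 299 TPM in GV oocytes. Ccnb1, the cyclin that activates CDK1, rose by 2.81 ± 0.39 (adjusted p = 0.000729), and Atf1, a transcription factor that PKA phosphorylates, by 3.76 ± 0.39 (adjusted p = 0.000518). Cdk1 fell (-4.94 ± 0.64, adjusted p = 0.000626), at 1.97 and 7.32 TPM in MII oocytes and 328 and 308 TPM in GV oocytes. Rapgef3, a cAMP-activated exchange factor that does not need PKA, fell (-3.76 ± 0.73, adjusted p = 0.00298). These 5 calls held on the TPM scale. Against ESC, 6 of the 17 were higher in GV oocytes and 4 lower, where 59.6% of all genes were called, with Rapgef4 higher by 6.20 ± 0.53 (adjusted p = 2.62e-05) and Creb1 lower (-2.84 ± 0.37, adjusted p = 0.000229).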

How the data were processed

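The authors deposited, per library, an expected count (kallisto's estimated count) and a TPM for each transcript. The submitters' processing notes name kallisto 0.43 and mm10. The authors' TPM are shares of each library after division by transcript length. Both were summed per gene over all annotated transcripts, and counts were rounded. Per the labels, RNA was extracted with TRIzol and made into stranded paired-end libraries. The sources used here do not say whether poly(A) RNA was selected; such selection would make a level depend on poly(A) tails as well as on RNA.

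Genes were tested with edgeR 4.0.16 (R 4.3.3): filterByExpr, TMM scaling (factors 0.422 and 0.405 in MII oocytes and 1.075 to 1.576 in the other 6 libraries), 1 mean per group, a robust quasi-likelihood fit with 4 residual degrees of freedom and Benjamini-Hochberg adjustment over 25045 genes. All 10 members passed the filter. Standard errors are approximate, from the fold change and its F. limma 3.58.1 and DESeq2 1.42.0 were alternatives. The TPM filter of limma was 1 TPM in 2 libraries.

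All 58 member transcripts matched GENCODE M21 (GRCm38). Coding sequences come from its transcripts and promoter windows from RefSeq (GRCm38.p6). The members and the 7 pathway lists (109 genes) were chosen with earlier results of these data known. From each list the text names at most 3 called genes per direction in MII against GV and in GV against ESC. They were drawn from the 3 with the largest change and a mean of 1 TPM or more in 1 group. Not all of these 3 are named: Pde2a, Akap13 and Cdc25c in MII against GV, for instance, are left out. Any gene of a list of 8 or fewer could also be named. For Gpr3 and Pde3a the 3 protein-coding genes nearest in profile are named.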

Additional observations from a re-analysis of the deposited data

Results flagged for a closer look

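For 3 genes the change in MII against GV oocytes differed from the change in EpiC against ESC by the test of that difference. Gnas was lower in MII against GV (-2.57 ± 0.39) and 0.89 ± 0.37 in EpiC against ESC, a difference of -3.46 (adjusted p = 0.00253, edgeR quasi-likelihood test). Pde8a was higher in MII against GV (4.51 ± 0.40) and lower in EpiC against ESC (-2.59 ± 0.37), a difference of 7.11 (adjusted p = 0.000789). Prkaca was higher in MII against GV (2.71 ± 0.36) and -0.28 ± 0.33 in EpiC against ESC, a difference of 2.99 (adjusted p = 0.0029). Direction and call of all 3 held under every alternative run. Groups of 2 libraries are too small for a search for single outlying libraries.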

How the results depend on the processing

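Of 719 member results under alternatives, 645 kept direction and side of the threshold, 20 lost their call, 15 gained one and 39 turned sign, all 39 of them not called with TMM. Of 26 called results 20 stayed called under every alternative. Unless a sentence says otherwise, the cause of a difference was not tested.

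With limma on log2(TPM + 1), log2(TPM + 0.1) and log2(TPM + 1) without the TPM filter, the genes called higher in MII against GV were 2394, 2221 and 2147 (4357 with TMM), the members 2, 2 and 2 higher and 2, 3 and 2 lower. Gpr3 was -1.47, -1.53 and -1.47, Adcy9 -0.66, -0.84 and -0.66, Pde3a 1.07, 1.10 and 1.07, Prkar1a -0.63, -0.65 and -0.63, and Prkar2b 0.95, 0.98 and 0.95; Adcy3 was -1.09 with 0.1. In EpiC against ESC 1347 genes were lower with 1, and 997 higher and 1275 lower without the filter (659 and 708 with TMM), no member was higher (0 in each) and Prkar2b was 1.32, 1.81 and 1.32. In GV against ESC 2 members were lower with 1 and with 0.1, where Prkaca was -1.03 and -1.05. In MII against EpiC the genes higher were 4372, 4534 and 4587 (7128 with TMM), Prkar1a -0.82, -0.85 and -0.82, Prkaca 0.82, 0.83 and 0.82, and Gpr12 0.36 without the filter. For the difference of the changes 6768, 6822 and 7022 genes were lower, 2018 and 2172 higher with 0.1 and without the filter, 2 members lower in each, Gpr3 -1.53, -1.74 and -1.53, Adcy9 -0.31, -0.20 and -0.31, Prkar1a -0.23, -0.24 and -0.23, and Prkar2b -0.37, -0.83 and -0.37.

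Among count fits, DESeq2 called 1508 genes higher and 1396 lower in EpiC against ESC, and 1303 and 1277 passed without the count filter, with 2 members higher, Pde3a at 1.42 among them. Without that filter Pde8a in GV against ESC was 1.08, Prkar1a 0.11 and the Prkar2b difference -0.02. The Gpr12 difference was 0.14 with DESeq2 and with relative log expression and 0.93 with an effective-length offset. With protein-coding transcripts alone 2 members were lower in GV against ESC (Prkaca -0.92). With the compared groups alone, fewer libraries and genes, 355 genes and 0 members were higher in EpiC against ESC (Prkar2b 2.13) and Prkar1a in GV against ESC was 0.04.

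Leaving out 1 library gave, for MII against GV, 3239 to 3447 genes higher and 3765 to 4861 lower with 3 to 4 members higher and 1 lower; for EpiC against ESC 135 to 456 and 272 to 436, 0 to 1 and 1; for GV against ESC 5669 to 6695 and 4929 to 7277, 6 and 1 to 2; for MII against EpiC 6526 to 6979 and 7018 to 9690, 7 and 1 to 2; and for the difference 2473 to 2941 and 2445 to 3908, 2 and 1. The remaining library of a group is then assumed to vary like the others. In MII against GV, Gpr12 ran between -0.98 and 0.12 (without the first GV library), and Adcy3 between -1.64 and 0.41 and Adcy9 between -0.02 and 0.50 (0.41 and -0.02 without the second). Gpr12 in EpiC against ESC ran between -1.14 and 0.40, with 0.36 without the second EpiC and 0.40 without the first ESC library. The difference turned sign for Gpr12 (0.20, 0.47, 0.75 and 0.62, down to -0.80), Prkar2b (-0.16, -0.32 and -0.20, up to 0.88), Adcy3 (0.29) and Pde3a (-0.05). Prkaca in GV against ESC was called without the second GV library (-1.09).

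The labels give the replicate numbers no meaning. Replicate differences correlated at 0.31 between MII and GV and 0.71 between EpiC and ESC, but at -0.02 to 0.01 across oocytes and cultured cells, so that the numbers were not taken as pairs over the 4 groups. The replicate block fitted the same replicate effect in all 4 groups. It therefore does not test pairing within oocytes or within cultured cells, for which no fit was run. With the replicate block, Pde8a in GV against ESC (0.83) and Prkar1a in MII against EpiC (0.72) were called, so that 7 and 8 members were higher, and the Gpr12 difference was 0.15; the gene counts stayed within 1.5 times. Gpr12 in EpiC and ESC rests on at most 6.21 estimated counts a library and Gpr3 on at most 26, which limits any statement on them there.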

Other observations

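In the oocyte libraries the noncoding transcript Gnas-001 was listed at 0 in the first replicate of MII and of GV oocytes and at 18.7% and 15.4% of the gene's TPM in the second replicates, while in EpiC and ESC it ran between 0.582% and 1.93%. The fall of Gnas in MII against GV was -2.69 on the log2 scale (adjusted p = 0.000427, edgeR quasi-likelihood test) with protein-coding transcripts alone. Of the granulosa markers, Cyp19a1 stood at 47.4 and 44.5 TPM in MII oocytes and 23.4 and 18.3 TPM in GV oocytes, so that the library rich in Inha was not the one rich in Cyp19a1.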
